A study of Sus scrofa with 12 samples.

Results

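The collagen genes of pig muscle were examined by their open chromatin. They were all protein-coding genes of the Sscrofa11.1 annotation whose symbol is COL, a number, A and a number, which gave 43 of 20663 protein-coding genes. An open region belonged to a collagen gene when its midpoint lay in the gene or within 5 kb of either end. By this rule 41 of the 43 genes held a total of 335 open regions, of 140081 regions in the whole data set. The remaining 2 genes were COL4A6, which held no region, and COL6A2, which the annotation places on a scaffold outside the chromosomes. COL6A1 is not listed under this symbol in the annotation used and was not analysed here. The regions were divided by the kind of collagen into 100 regions of 11 fibrillar genes, 47 regions of 6 basement membrane genes and 188 regions of 26 other genes. Regions in the 5 kb beside a gene counted whatever their reads: those just inside the limit were a COL4A3 region 4.96 kb away with 504 Luchuan and 686 Duroc reads and a COL6A6 region 4.78 kb away with 53 and 108, and those just outside were a COL24A1 region 5.01 kb away with 11 and 23 and a COL1A2 region 5.52 kb away with 20 and 30.

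ATAC-seq uses a transposase that cuts accessible DNA, so that reads collect over open chromatin. The tissue was longissimus dorsi, the long muscle of the back, from 3 Duroc and 3 Luchuan boars at 180 days of age that shared the same housing and feed and were fasted overnight before slaughter. Duroc is a lean breed and Luchuan is a fat Chinese breed. Coordinates are those of Sscrofa11.1, counted from 1. The deposited table gives 1 read count per interval and breed, so individual boars cannot be separated and no value below has a spread between animals. A difference between the libraries is therefore not shown to be a difference between the breeds.

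Skeletal muscle is held together by connective tissue, which wraps the whole muscle in the epimysium, bundles of fibers in the perimysium and each fiber in the endomysium. Fibroblasts make most of its fibrillar collagens, whose chains wind into a helix, leave the cell as procollagen, are trimmed by proteases and then join into cross-linked fibrils that carry force. Basement membrane collagens form a sheet around fibers, capillaries and nerves instead, and smaller families sit on fibril surfaces, form beaded filaments or span the cell membrane. The amount and cross-linking of intramuscular collagen are well known for their bearing on the toughness of meat.

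The Luchuan libraries held 13746020 reads in the open regions and the Duroc libraries 20759894. Luchuan counts were multiplied by 1.485, the factor that puts the median log2 ratio of all regions at 0, and every log2 ratio below is Luchuan over Duroc on that scale after 1 was added to each count. The median collagen region held 28 Luchuan and 44 Duroc reads, fewer than the 38 and 61 of the median region of the genome. Brackets after a log2 ratio hold its 95% interval, obtained from the exact binomial (Clopper-Pearson) limits for the fraction of reads that came from Luchuan. This interval covers counting error only, since there is 1 count per region and breed and no spread between animals. It also treats each read as independent, and whether copies of a molecule were removed is not given. Any copies left in the counts would make it too narrow. The median interval of a collagen region was 1.49 log2 units wide. A region was called higher in 1 breed when it differed by 2-fold or more and its interval excluded 0. The muscle of origin was evident in its markers, since the 7 muscle fiber genes listed, such as MYH1, ACTA1 and CKM, all had open regions, with between 6044 and 12057 reads a gene. Their summed log2 ratios ran from -0.46 to -0.04, all below 0, and 69 of their 79 regions were below 0 too, with a median of -0.30. The part of this in the collagen ratios was not tested. In bulk tissue, fewer cells of a type and less open chromatin per cell cannot be told apart.

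Fibrillar collagens leaned towards Luchuan, though the median of their regions of 100 reads or more was -0.01. The medians of the other groups lay slightly below 0. Of the 100 fibrillar regions, 68 lay above 0, and their median log2 ratio was 0.29 with quartiles of -0.07 and 0.70, beside quartiles of -0.33 and 0.33 around 0 for all regions. The 47 basement membrane regions had a median of -0.10, with 18 above 0 and 29 below. The 188 other regions had a median of -0.05, with 83 above and 105 below. Over all 335 regions the median was 0.0055, while the reads of all collagen regions added together gave -0.11 (-0.13 to -0.08), beside -0.02 for all regions of the genome. Calls followed the same division. Of the collagen regions, 25 were called higher in Luchuan (7.46%, beside 6.48% of all regions) and 16 in Duroc (4.78%, beside 4.89% of all regions). Of all regions within 5 kb of a protein-coding gene, 5.03% were called higher in Luchuan and 4.37% in Duroc. Fibrillar genes held 14 of the 25 Luchuan calls and 1 of the 16 Duroc calls, whereas the other collagens held 9 and 14 and the basement membrane collagens held 2 and 1. Where all reads of a group were added, the log2 ratio was 0.09 (0.05 to 0.14) for fibrillar, -0.13 (-0.19 to -0.07) for basement membrane and -0.20 (-0.23 to -0.16) for other collagens.

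**Figure D1:**
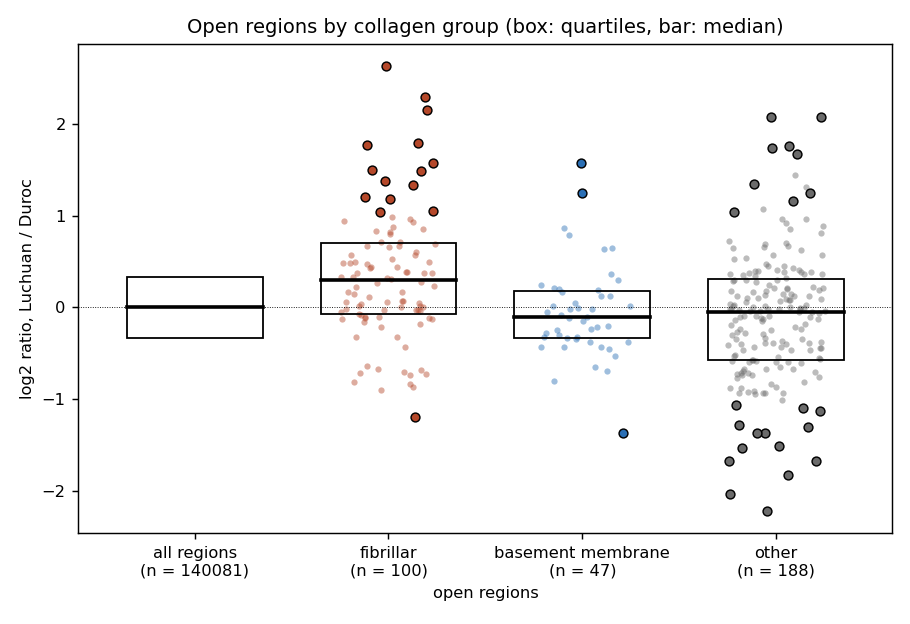
Log2 ratio of Luchuan over Duroc reads (vertical axis) for every open region of the fibrillar, basement membrane and other collagens, with boxes at the quartiles and a bar at the median, beside the quartiles of all 140081 regions. Larger points with a black outline are the called regions. The fibrillar median bar is at 0.29, and 14 outlined points lie above the box against 1 below 0, while the other collagens hold 9 above and 14 below.

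The fibrillar lean was carried by regions with few reads. The authors' table marks each interval as common to both breeds or as specific to 1 of them. Fibrillar regions comprised 33 common, 34 Luchuan-specific and 33 Duroc-specific regions, so 34.0% were Luchuan-specific against 19.1% of all regions. All 14 fibrillar Luchuan calls were Luchuan-specific regions, whose median log2 ratio was 0.91, beside 0.78 for Luchuan-specific regions of the whole genome. The 33 common fibrillar regions had a median of 0.06 and no call, with 22 above 0 (66.7%, beside 51.2% of all common regions). Among weak regions with up to 47 reads in both breeds together, the lowest quartile of the genome, 36 of 38 fibrillar regions lay above 0 with a median of 0.76. Regions of the whole genome in that quartile had a median of 0.32 with 64.4% above 0, so weak regions leaned towards Luchuan in general. Of the 38 weak fibrillar regions, 12 were called higher in Luchuan (31.6%, beside 18.0% of all regions in that quartile). By mark, 27 of the 38 were Luchuan-specific (71.1%, beside 49.8% of all regions in that quartile), 10 were Duroc-specific and 1 was common. Among Luchuan-specific regions of the whole genome, 92.3% lay above 0, beside 22.7% of Duroc-specific regions. The part of the mark in the count of 36 was not tested. In the highest quartile the 13 fibrillar regions had a median of 0.02. With the regions under 100 reads left out, the fibrillar median was -0.01, beside -0.05 for all regions. The basement membrane and other collagens stood at -0.22 and -0.11 with that filter. Scaling separately in 20 bins of read number gave a fibrillar median of 0.16. With that scaling 12 collagen regions in place of 25 were called higher in Luchuan (3.97% of all regions) and 23 in place of 16 in Duroc (5.67% of all regions). A single gene also counted for much: the fibrillar median was 0.07 without COL5A2 and 0.41 without COL27A1.

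**Figure D2:**
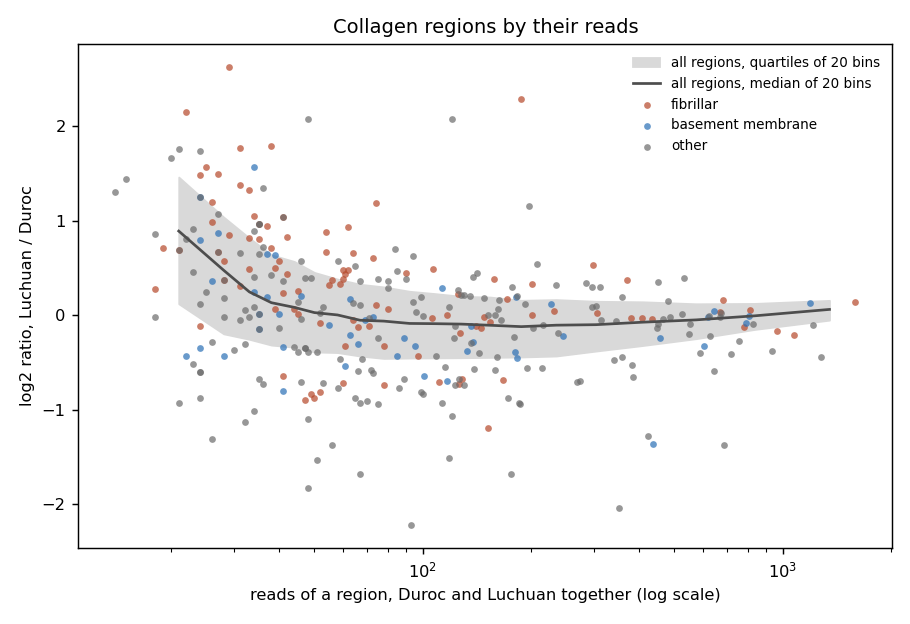
Log2 ratio of Luchuan over Duroc reads (vertical axis) of each collagen region against its reads in both breeds together (horizontal axis, log scale), with the median and quartiles of all regions in 20 bins as a line and a grey band. Fibrillar points lie high at the left, where 36 of 38 regions with up to 47 reads are above 0. Of these 38 regions, 27 are Luchuan-specific. The band itself rises at the left to a median of 0.89 in the lowest bin.

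Summed over its open regions, 4 collagen genes passed 1.5-fold with an interval excluding 0 towards Luchuan, beside 4.31% of all 16441 genes with a region. They were COL9A1, COL2A1, COL3A1 and COL24A1. Towards Duroc, 2 genes passed, COL13A1 and COL6A5, beside 3.07% of all genes. These counts depended on the scaling: with the clean reads of the libraries as the scale, none of the 4 Luchuan genes passed (2.58% of all genes did) and 7 genes passed towards Duroc (7.03% of all genes). The interval lay wholly on the Luchuan side for 8 collagen genes (23.1% of all genes) and wholly on the Duroc side for 11 (22.4% of all genes), and it held 0 for the remaining 22. Of the 11 fibrillar genes, 8 had a summed log2 ratio above 0 and the median was 0.27. Of the 25 other collagen genes with a region, 20 had a ratio below 0 and the median was -0.17. For the 5 basement membrane genes the median was -0.11, with 2 above and 3 below. Over all 16441 genes the median was 0.01.

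**Figure D3:**
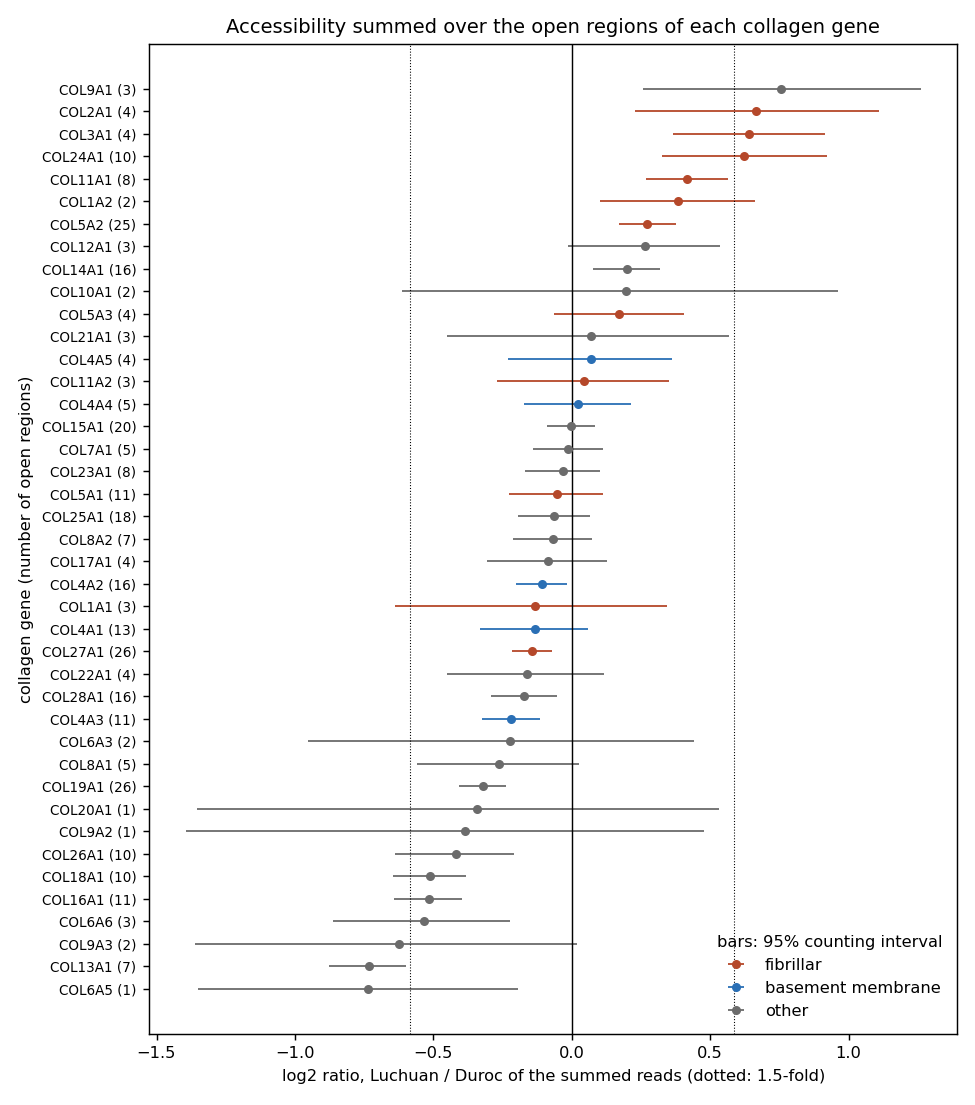
Log2 ratio of the summed Luchuan over Duroc reads (horizontal axis) of 41 collagen genes in order of their value, with 95% counting intervals as bars, the number of open regions in brackets and dotted lines at 1.5-fold. COL9A1 at 0.75 and COL2A1, COL3A1 and COL24A1 lie beyond the upper line, COL13A1 and COL6A5 beyond the lower line, and the longest bars belong to genes with 1 or 2 regions.

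Type I collagen is the most abundant protein of tendon, bone and the perimysium, and it is built from the chains of COL1A1 and COL1A2. COL1A1 (chr12:26379087-26397180) had only 3 weak regions, with 19, 25 and 14 Luchuan reads and 16, 41 and 38 Duroc reads. All 3 counting intervals held 0, and the summed log2 ratio was -0.13 (-0.64 to 0.34). COL1A2 (chr9:74174484-74210407) had a clear region across its lower end, at chr9:74173907-74174754, with 172 Luchuan and 197 Duroc reads. Its log2 ratio was 0.38 (0.07 to 0.68), and another region inside the gene, at chr9:74175069-74175273 with 29 and 32 reads, had 0.43. The chains of a single molecule thus differed in what could be measured, since COL1A1 had no region with more than 66 reads.

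Type III collagen, encoded by COL3A1, forms the fine reticular fibers of the endomysium and perimysium. All 4 of its regions lay above 0. The largest, inside the gene at chr15:93560839-93561207, held 147 Luchuan and 151 Duroc reads, with a log2 ratio of 0.53 (0.19 to 0.87). A neighbour at chr15:93559384-93559571 held 35 and 27 reads, with 0.93 (0.18 to 1.73), and neither reached 2-fold. Only the weakest, at chr15:93592336-93592526 near the upper end, was called, with 18 and 9 reads and 1.496 (0.34 to 2.91). Summed over the gene, COL3A1 stood at 0.64 (0.37 to 0.91), from 230 Luchuan and 219 Duroc reads.

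COL5A2 lies 16.2 kb above COL3A1 on chromosome 15. Type V collagen, which its chain helps to form, starts fibrils and limits their diameter. Of its 25 regions, 22 lay above 0, the median was 0.57, and the summed log2 ratio was 0.27 (0.17 to 0.38). The strongest region, at chr15:93980515-93981632 across the upper end, held 680 Luchuan and 914 Duroc reads, more than the other regions of the gene together, and its ratio was 0.14 (-0.0017 to 0.29). It lies in the body of the neighbouring gene WDR75 as well, so its reads cannot be assigned to COL5A2 alone. The 4 called regions were all weak and inside the gene. At chr15:93672599-93672841 there were 45 Luchuan and 29 Duroc reads, a ratio of 1.19 (0.50 to 1.93). The others, starting at 93645039, 93835335 and 93960831, had 17 and 8, 20 and 11, and 21 and 12 reads, with ratios of 1.57, 1.38 and 1.33. The neighbourhood of both genes also lay above 0: regions within 1 Mb but beyond 5 kb had medians of 0.23 around COL3A1 and 0.18 around COL5A2. These windows overlap, and each includes regions of the other gene, so the medians are not independent.

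COL5A1, which encodes a partner chain of type V and lies on chromosome 1, had 11 regions, 5 above and 6 below 0, and a summed log2 ratio of -0.05 (-0.23 to 0.11). Its strong regions near the lower end were even between the breeds: 161 Luchuan and 245 Duroc reads at chr1:273933573-273933984 gave -0.03, and 151 and 229 at chr1:273936560-273937076 gave -0.03. It had 1 call, at chr1:273971115-273971314, with 16 and 10 reads and a ratio of 1.20 (0.02 to 2.55). COL5A3, the remaining chain, on chromosome 2, had 4 regions without a call, 3 of them above 0, and its summed ratio was 0.17 (-0.07 to 0.40).

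**Figure D4:**
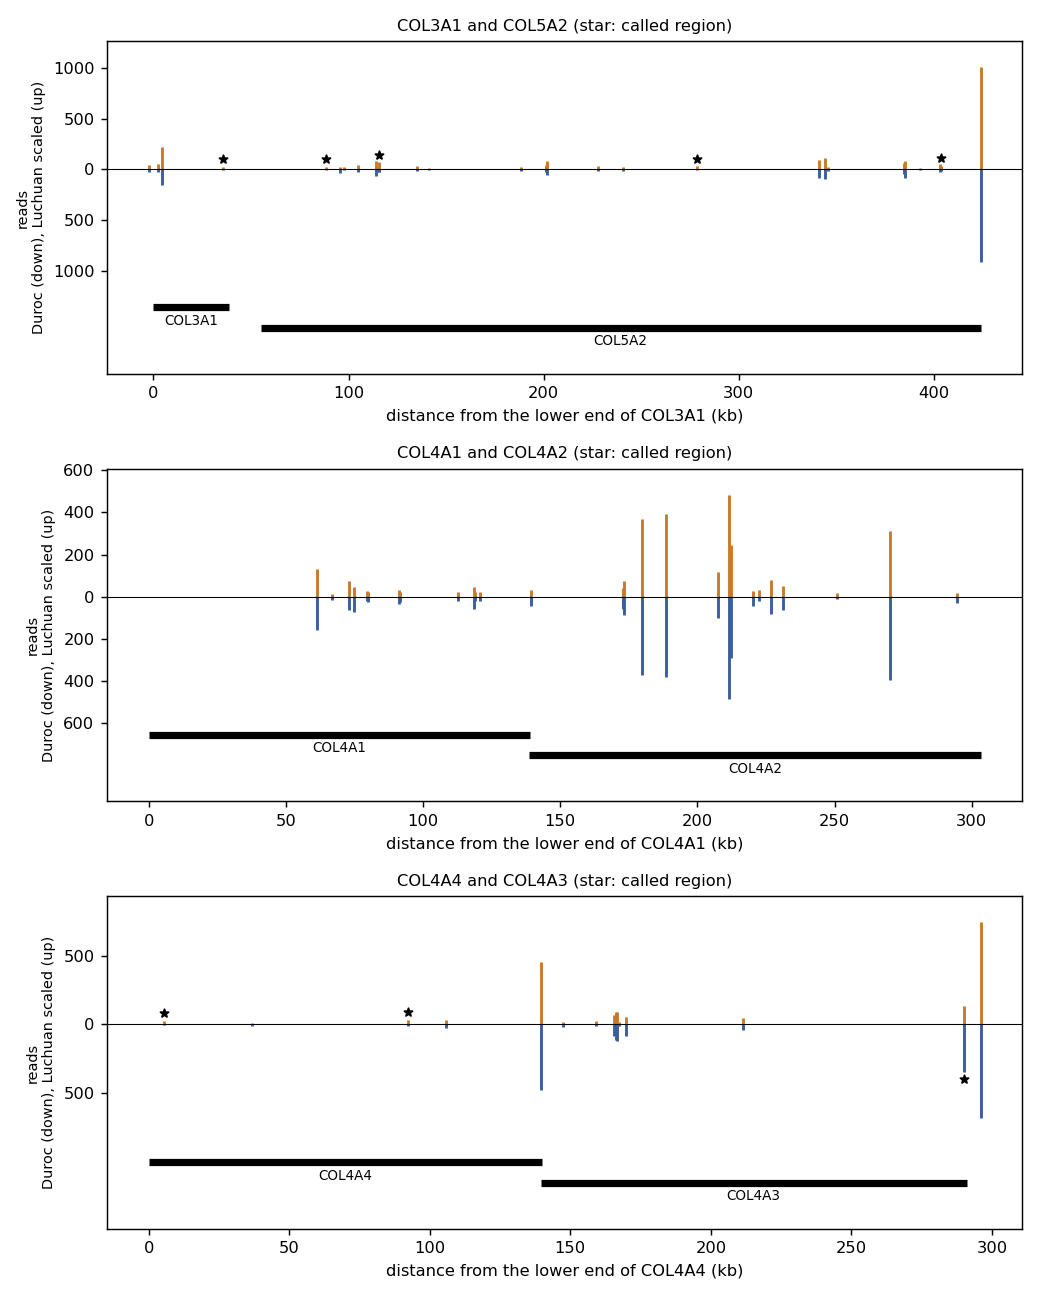
Reads of each open region, Luchuan scaled by 1.485 upwards in orange and Duroc downwards in blue, along 3 pairs of neighbouring collagen genes, by distance in kb from the lower end of the first gene; black bars are the genes and stars the called regions. In the top panel the stars of COL3A1 and COL5A2 sit on short lines and the tall line with 680 Luchuan and 914 Duroc reads has none; COL4A1 and COL4A2 hold no star; in the bottom panel the only Duroc star is on the COL4A3 region with 90 and 347 reads.

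COL11A1 encodes a chain of type XI collagen, a minor fibrillar collagen that seeds thin fibrils and is best known from cartilage. Its largest regions lie near the lower end (chr4:115638381-115841679 is the gene) and were even, with 294 Luchuan and 389 Duroc reads at chr4:115639354-115639945 giving 0.17 (-0.06 to 0.39), and 124 and 182 at chr4:115637476-115637783 giving 0.02. More than 100 kb further into the gene, the region at chr4:115749421-115750176 held 144 Luchuan and 43 Duroc reads. This was a log2 ratio of 2.29 (1.81 to 2.84), and the whole interval lay farther from 0 than that of any other collagen region called higher in Luchuan. A weaker region close by, at chr4:115750998-115751170, held 24 and 5 reads, with 2.63 (1.41 to 4.58). The gene's summed ratio was 0.42 (0.27 to 0.57), while other regions within 1 Mb had a median of -0.14. The partner chain COL11A2, on chromosome 7, had 3 regions and 0.05 (-0.27 to 0.35).

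COL24A1 (chr4:129911760-130243177), a fibrillar collagen described from developing bone and the eye, had 10 weak regions, none common to both breeds. As many as 5 were called higher in Luchuan, more than in any other collagen gene. Each of these held up to 47 reads in both breeds together. Of all regions of the genome in that lowest read quartile, 18.0% were called higher in Luchuan. At chr4:130013569-130013813 there were 27 Luchuan and 11 Duroc reads, with a log2 ratio of 1.79 (0.81 to 3.03). At chr4:130184407-130184556 there were 17 and 5 reads, with 2.16 (0.84 to 4.13). A region just inside the lower end, at chr4:129912311-129912467, had 22 and 9 reads, with 1.77 (0.68 to 3.16). The other calls started at 129907429 and 130147942, with 16 and 8 and with 20 and 14 reads. No region of the gene held more than 55 reads, and its summed ratio of 0.62 (0.33 to 0.92) rests on 194 Luchuan and 187 Duroc reads. The weak regions just beyond the 5 kb limit, both Duroc-specific, had -0.43 at a distance of 5.01 kb and -0.06 at 5.81 kb. Over all 198 regions within 1 Mb but beyond 5 kb the median was 0.19, so the neighbourhood lay above 0 too.

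COL27A1, a fibrillar collagen of cartilage, lay on the other side of 0. It had 2494 Luchuan and 4088 Duroc reads over 26 regions on chromosome 1. The gene summed to a log2 ratio of -0.14 (-0.22 to -0.07), close to the median of -0.16 for other regions within 1 Mb. Its main regions were close to even, as with 395 Luchuan and 680 Duroc reads at chr1:254888612-254889573 giving -0.21 (-0.40 to -0.03) and 335 and 479 at chr1:254822125-254822915 giving 0.06. The single call, at chr1:254786915-254787251, was higher in Duroc, with 34 and 118 reads and -1.20 (-1.82 to -0.66). COL2A1, the main collagen of cartilage, had 4 weak regions on chromosome 5, all above 0. They held 92 Luchuan and 86 Duroc reads in all, a ratio of 0.67 (0.23 to 1.11), and the called region at chr5:78377182-78377331 had 24 and 17 reads, with 1.04 (0.11 to 2.06).

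**Figure D5:**
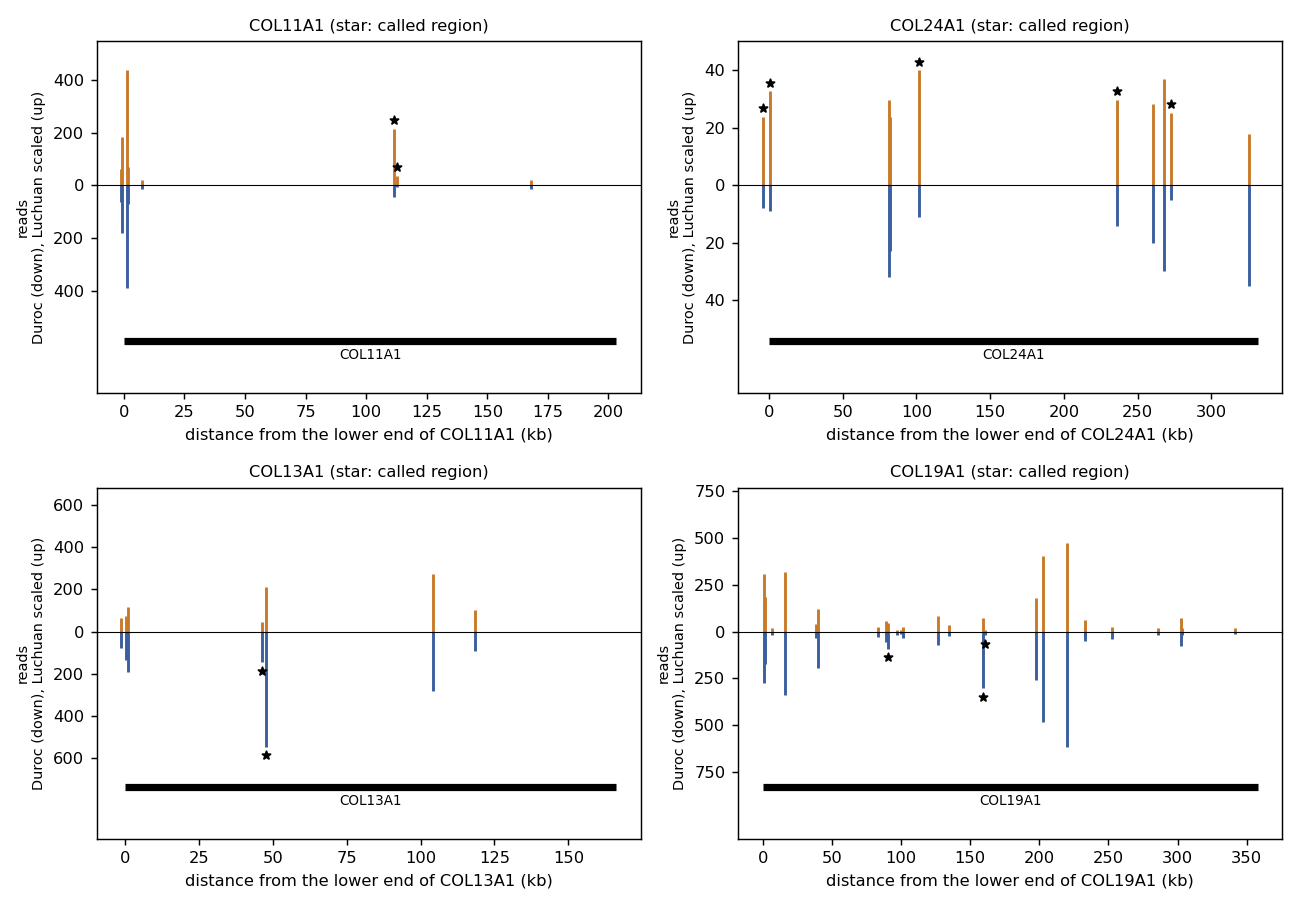
Reads of each open region, Luchuan scaled by 1.485 upwards in orange and Duroc downwards in blue, along COL11A1, COL24A1, COL13A1 and COL19A1, by distance in kb from the lower end of each gene, each panel on its own vertical scale; black bars are the genes and stars the called regions. In COL11A1 the starred line of 144 Luchuan against 43 Duroc reads stands deep in the gene while the lines at its lower end are balanced, the stars of COL24A1 mark lines under 60 reads, and the stars of COL13A1 and COL19A1 mark Duroc lines of up to 545 and 303 reads.

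Type IV collagen makes the network of every basement membrane, and its genes lie in head-to-head pairs. COL4A1 and COL4A2, the chains found around muscle fibers and capillaries, overlap by 525 bases on chromosome 11 in the annotation used. The shared region over the overlap, at chr11:76997388-76997618, was weak, with 23 Luchuan and 43 Duroc reads and a log2 ratio of -0.30 (-1.13 to 0.43). The strong regions lay inside COL4A2 and were even. At chr11:77069600-77070256 there were 324 Luchuan and 485 Duroc reads, giving -0.01 (-0.22 to 0.19), and at chr11:77046331-77047118 there were 265 and 381, giving 0.05 (-0.19 to 0.28). The region at chr11:77128304-77128972, with 211 and 394 reads, stood at -0.33 (-0.58 to -0.09). COL4A1 summed to -0.13 (-0.33 to 0.06) over 13 regions and COL4A2 to -0.11 (-0.20 to -0.02) over 16, and no region of either gene was called.

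COL4A3 and COL4A4, which form a network best known from the kidney glomerulus, overlap by 663 bases on chromosome 15. Their shared region at chr15:128610986-128612318 held 308 Luchuan and 484 Duroc reads and was even, at -0.08 (-0.29 to 0.13). At the far end of COL4A3, the region at chr15:128761762-128762575 held 90 Luchuan and 347 Duroc reads, a log2 ratio of -1.36 (-1.73 to -1.04). It was common to both breeds and was the only Duroc call among the basement membrane collagens. The next region, 5.0 kb above the gene at chr15:128767754-128768825, had 504 and 686 reads and 0.13. COL4A4 held both Luchuan calls of the group, at chr15:128564256-128564476 with 23 and 11 reads and 1.57 (0.54 to 2.82), and at chr15:128477478-128477627 with 15 and 9 reads and 1.248 (0.02 to 2.68). The latter also lies in the gene RHBDD1. COL4A5, on chromosome X, had 4 regions around its lower end with a summed ratio of 0.07 (-0.23 to 0.36). All chromosome X regions together had a median of -0.22. Its partner COL4A6 is placed 208 kb away in the annotation used, which departs from the head-to-head arrangement of the other pairs. As annotated there, COL4A6 had no open region within 5 kb. Whether that gene model is complete was not tested.

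Type VI collagen forms beaded filaments that tie the basement membrane of muscle fibers to the matrix around them, and its loss causes muscular dystrophies. COL6A3 (chr15:137011549-137103687), the only main chain that could be measured, had 2 weak regions, with 16 Luchuan and 31 Duroc reads and with 13 and 20, and a summed log2 ratio of -0.22 (-0.95 to 0.44). Nothing could be said of its direction at this depth. The alternative chains COL6A6 and COL6A5 lie 43.6 kb apart on chromosome 13. COL6A6 had a region just inside its lower end, at chr13:1817583-1817947, with 11 Luchuan and 82 Duroc reads. Its ratio of -2.22 (-3.39 to -1.41) was the lowest of all 335 collagen regions. The regions on either side of it were not called, with 53 and 108 reads giving -0.44 and with 56 and 69 giving 0.27. COL6A5 had a single region near its upper end, at chr13:2173690-2174100, with 37 and 93 reads and -0.74 (-1.35 to -0.20).

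The fibril-associated collagens, called FACIT, coat fibrils without forming them, and their 70 regions had a median of 0.01 with 35 above and 35 below 0. COL12A1 and COL14A1 belong to the perimysium and tendon. COL12A1 had a region across its lower end, at chr1:90744299-90744794, with 131 Luchuan and 154 Duroc reads and 0.34 (-0.01 to 0.68), and it summed to 0.26 (-0.01 to 0.54). COL14A1 (chr4:18690197-18925111) had even regions where its reads were most, with 273 and 400 at chr4:18732393-18732985 giving 0.02 (-0.21 to 0.24) and 170 and 277 at chr4:18798962-18799576 giving -0.13. Deep in the gene, the region at chr4:18841664-18842135 held 90 Luchuan and 31 Duroc reads, a log2 ratio of 2.08 (1.505 to 2.75). Another, weak call near the lower end had 15 and 9 reads, with 1.248. The gene as a whole summed to 0.20 (0.08 to 0.32), with 13 of 16 regions above 0.

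COL19A1 and COL9A1 lie 1.1 kb apart on chromosome 1 and lay on opposite sides of 0. COL19A1 encodes a collagen found near basement membranes and expressed during muscle differentiation. It had 26 regions and summed to -0.32 (-0.41 to -0.24). The region at chr1:50203552-50204162, 159 kb into the gene, held 49 Luchuan and 303 Duroc reads, a log2 ratio of -2.03 (-2.52 to -1.62). Its interval lay farther from 0 than that of any other collagen region called higher in Duroc. A weak region beside it, at chr1:50205020-50205223 with 5 and 21 reads, had -1.30 (-3.26 to -0.05), and another at chr1:50134593-50134911 with 29 and 92 had -1.06 (-1.75 to -0.48). Its regions at the lower end were even, with 206 and 276 reads giving 0.15, and other regions within 1 Mb had a median of 0.19. COL9A1, a chain of the cartilage FACIT type IX, had 3 regions, none called. They held 74 Luchuan and 65 Duroc reads in all, a summed ratio of 0.75 (0.26 to 1.26), the highest of all collagen genes. The other chains of type IX stood at -0.39 (COL9A2, 1 region) and -0.62 (COL9A3, 2 regions), both with intervals that held 0. COL9A3 had a Duroc call of 11 and 45 reads, which lies in the gene OGFR.

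COL16A1, a collagen of fibrillin-rich and fibrillar matrix, had ratios below 0 along most of its length. Of its 11 regions, 9 lay below 0, and the gene summed to -0.52 (-0.64 to -0.40), from 792 Luchuan and 1684 Duroc reads. The region across its upper end, at chr6:88243033-88244464, held 423 and 853 reads and -0.44 (-0.61 to -0.27). Single calls went both ways, with 9 and 42 reads at chr6:88178448-88178675 giving -1.53 (-2.88 to -0.59) and 14 and 6 at chr6:88183015-88183173 giving 1.67. COL22A1 marks the junction of muscle and tendon. The region across its lower end, at chr4:4068668-4069165, held 48 Luchuan and 138 Duroc reads, with -0.93 (-1.46 to -0.47), just short of 2-fold. Inside the gene, 81 and 111 reads gave 0.12, and a call of 15 and 6 reads gave 1.76 (0.44 to 3.55). COL20A1 and COL21A1 had 1 and 3 weak regions and no call.

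The multiplexins COL15A1 and COL18A1 sit in the basement membrane zone of muscle and vessels, and the C-terminal fragment of the latter is endostatin, an inhibitor of vessel growth. Of their 30 regions, 4 were called higher in Duroc (13.3%, beside 4.89% of all regions) and 0 in Luchuan (beside 6.48%). Of these calls, 3 lay in COL15A1 and 1 in COL18A1. The region across the lower end of COL18A1, at chr13:207907413-207908104, held 91 Luchuan and 331 Duroc reads, with -1.28 (-1.64 to -0.95). The region at chr13:207948678-207949503, inside the gene with 199 and 445 reads, had -0.59 (-0.84 to -0.35), and the gene summed to -0.51 (-0.64 to -0.38) with 8 of 10 regions below 0. Its neighbourhood also lay below 0, with a median of -0.26 for other regions within 1 Mb. COL15A1 was even as a whole, at -0.0015 (-0.09 to 0.09) over 20 regions, but not region by region. Across its lower end, at chr1:240717935-240718585, 249 Luchuan and 282 Duroc reads gave 0.39 (0.14 to 0.64). Inside it, 199 and 391 reads at chr1:240735753-240736349 gave -0.40 (-0.66 to -0.15), and 22 and 96 at chr1:240765436-240765775 gave -1.51 (-2.29 to -0.88). The other calls were 11 and 37 reads at -1.09 and 7 and 25 at -1.13.

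COL13A1 encodes a membrane-spanning collagen of the neuromuscular junction, and its loss causes a congenital myasthenic syndrome. It was lower in Luchuan than any other collagen gene with more than 1 region, with 595 Luchuan and 1471 Duroc reads over 7 regions and a summed log2 ratio of -0.73 (-0.88 to -0.60). The region at chr14:72833824-72834721, inside the gene and common to both breeds, held 141 and 545 reads, with -1.37 (-1.66 to -1.11). Just below it, at chr14:72832750-72833131, 30 and 146 reads gave -1.68 (-2.33 to -1.14). Near the lower end, 48 and 137 reads gave -0.92 and 78 and 190 gave -0.70, neither of them called. Farther up the gene the breeds were even, with 184 and 282 reads giving -0.04 and 70 and 93 giving 0.17. Other regions within 1 Mb had a median of 0.03.

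The other membrane-spanning collagens had summed log2 ratios near 0, with calls both ways. COL25A1, which motor axons need to innervate muscle, summed to -0.06 (-0.19 to 0.07). Its region across the lower end held 267 Luchuan and 401 Duroc reads, with -0.01. Inside the gene, 36 and 12 reads at chr8:113191606-113191924 gave 2.08 (1.18 to 3.23), and a further 2 weak regions were called higher in Luchuan, at 1.74 and 1.04. COL23A1 summed to -0.03 (-0.17 to 0.10). It had the only collagen region common to both breeds that was called higher in Luchuan, at chr2:80038121-80038765 with 119 and 79 reads and 1.16 (0.74 to 1.59), and a Duroc call at chr2:79985260-79985544 with 11 and 56 reads and -1.68 (-2.86 to -0.83). COL17A1, the hemidesmosome collagen of epithelia, had 4 regions, no call and -0.09 (-0.30 to 0.13).

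Among the remaining genes, COL7A1 of anchoring fibrils summed to -0.01 (-0.14 to 0.11), with its strongest region in the gene PFKFB4. The network collagens COL8A1, COL8A2 and COL10A1 had no call in 14 regions and summed to -0.26, -0.07 and 0.20, each with an interval that held 0. COL28A1, which is known from peripheral nerve, summed to -0.17 (-0.29 to -0.05). It held a strong region at chr9:77696571-77697347 with 241 Luchuan and 477 Duroc reads and -0.41 (-0.64 to -0.19), and a weak Luchuan call of 23 and 13 reads. COL26A1 summed to -0.42 (-0.64 to -0.21) and had a Duroc call of 7 and 41 reads, with -1.82 (-3.38 to -0.81).

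Most collagen regions lay inside the genes and not at their ends, which the rule favours because it counts whole genes but only 5 kb on either side. No such share for all genes is given here. Of the 335 regions, 289 lay within a gene and 14 crossed a gene end. Those 14 held a median of 476.5 reads in both breeds together against 67 for the rest, not corrected for the length of a region. Of the 14, 1 in COL18A1 was called higher in Duroc (beside 4.89% of all regions), and their median log2 ratio was -0.07. The 3 fibrillar regions across a gene end, of COL1A2, COL5A2 and COL5A3, stood at 0.38, 0.14 and -0.07. Strand, exons and untranslated regions are not given in the annotation used, so the end with the transcription start was not identified and no region was assigned to an exon or intron.

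Genes that modify, process, bind or degrade collagen had a median close to that of the genome. Of 71 listed, 67 had a region, and their 647 regions had a median log2 ratio of 0.03, with 33 called higher in Luchuan (5.10%) and 21 in Duroc (3.25%), beside the 5.03% and 4.37% of all regions within 5 kb of a protein-coding gene. The median was 0.01 for the 129 regions of modification and folding genes and 0.11 for the 108 of processing and cross-linking genes. It was 0.20 for 71 receptor regions, of which 50 lay above 0, -0.03 for 47 degradation regions, 0.08 for 30 of matrix partners, whose reads added together gave -0.20 (-0.28 to -0.12), -0.04 for 190 of basement membrane partners and 0.01 for 72 of inducers such as the TGFB genes. The called regions with the interval farthest from 0 towards Luchuan lay in BMP1, ADAMTS14 and P3H2. BMP1, the protease that trims the C-terminal propeptide of procollagen, held 87 Luchuan and 44 Duroc reads at chr14:6444930-6445242, with 1.54 (1.01 to 2.11). ADAMTS14, which trims the N-terminal propeptide, had 16 and 4 reads at chr14:73608188-73608356, with 2.34 (0.94 to 4.61). P3H2, a prolyl hydroxylase that acts on basement membrane collagen, had 319 and 228 at chr13:127413376-127414131, with 1.05 (0.81 to 1.31).

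Towards Duroc the corresponding regions lay in LAMA2 and FMOD. LAMA2 encodes the laminin chain of the muscle basement membrane, and FMOD encodes fibromodulin, which binds fibrils. LAMA2 held 23 Luchuan and 120 Duroc reads at chr1:33983915-33984240, with -1.76 (-2.52 to -1.16), and 25 and 108 at chr1:33784633-33784971, with -1.497 (-2.23 to -0.90). FMOD held 50 and 197 at chr9:64061861-64062226, with -1.39 (-1.89 to -0.95). Summed over genes, 3 of the 67 listed genes with a region were called towards Luchuan, beside 4.31% of all genes. They were MMP14 at 0.67, FN1 at 0.59 and TIMP4 at 0.92 (0.06 to 1.83), the last from 48 reads. Towards Duroc, 2 of the 67 were called, beside 3.07% of all genes, namely MMP8 at -1.27 and FMOD at -0.99. MMP8 and TIMP4 had 1 region each. LOX, the main cross-linking oxidase, stood at -0.13 (-0.36 to 0.09), and SERPINH1, the collagen chaperone, at -0.04 (-0.19 to 0.11).

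Markers of the cells that make most collagen lay near 0. The 36 regions of 6 fibroblast and fibro-adipogenic progenitor genes had a median of 0.02, with 19 above and 17 below 0 and no call. They held between 36 and 1400 reads a gene, and among them PDGFRA stood at -0.10 (-0.25 to 0.06). LUM and TCF21 of that list had no region. Pericyte and smooth muscle genes lay above 0 in 5 of 5 genes with a region, with a median of 0.25 over 45 regions and ACTA2 at 0.67 (0.52 to 0.81), and RGS5 had no region. The medians were 0.40 for 26 endothelial regions, where CDH5 had none, 0.30 for 12 adipocyte regions, 0.16 for 17 macrophage and leukocyte regions and -0.25 for 24 satellite cell regions. The endothelial reads added together lay on the other side of 0, at -0.14 (-0.25 to -0.03), with 3 genes above 0 and 3 below. KDR at 0.74 and TEK at 0.63 were called higher in Luchuan (beside 4.31% of all genes). TIE1 at -0.70 was called higher in Duroc (beside 3.07% of all genes). Of the macrophage and leukocyte genes, 2 lay above 0 and 3 below, and PTPRC at -1.05 was called higher in Duroc. Of the adipocyte genes, 3 lay above 0 and 2 below. The 10 regions of 4 cartilage genes, COL2A1 among them, had a median of 0.47 and between 74 and 576 reads a gene, with 3 genes above 0 and 1 below. The part of these cell types in the differences of the collagen genes was not tested.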

How the data were processed

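ATAC-seq of the longissimus dorsi was measured in 3 Luchuan and 3 Duroc boars, and RNA-seq of the muscle was not analysed here. Per the labels and the study's methods, Trimmomatic 0.36 removed low-quality sequence, Bowtie2 mapped the reads to Sscrofa11.1 and MACS2 called peaks. The deposited values are raw read counts in whole numbers, 1 for each breed in every interval. Removal of duplicates, the shift for the transposase and how the boars of a breed were combined are not given in the sources used here, so the counts were read as pooled. The table also holds the authors' own comparison (a rescaled log2 fold change, an average signal and a p-value per interval), which was not used.

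Common intervals that overlapped or adjoined were merged and represented by the longest interval, which turned 493 deposited collagen intervals into 335 regions, of 217213 and 140081 in all. Regions were assigned to the RefSeq genes of Sscrofa11.1 by midpoint, and 2 regions belong to a pair of collagen genes. Weak regions had wide counting intervals at this depth. No test between animals was possible. The members and lists were chosen with earlier results of these data known. Named were 14 collagens of muscle connective tissue (12 of them with a region), the called regions, the 5 genes at either end of the order among those with 100 reads or more, neighbouring pairs and, of the other pathway genes, the 3 called regions of each direction with the interval farthest from 0. Genes named beyond these were chosen after their values were seen. CCN2 did not match by symbol, and 1 list of cell type markers is not reported here. Alternatives varied the scaling, the window at genes, the merging, the pseudocount of 1, read filters and the calls. Counts were handled with pandas 2.3.3 and NumPy 2.4.6 in Python 3.11.15, intervals came from SciPy 1.17.1 and plots from Matplotlib 3.10.9.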

Additional observations from a re-analysis of the deposited data

How the results depend on the processing

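No paired analysis was possible because the count columns carry no replicate number, and no boar could be left out. Scaling by the sequenced clean reads of the libraries moved the median log2 ratio of all regions by -0.20, and all collagens moved with it: medians became -0.20 for all collagen regions, -0.30 for basement membrane, -0.25 for other and 0.09 for fibrillar collagens. On that scale 32 regions were called higher in Duroc (8.06% of all regions), 17 in Luchuan (4.01%), and 7 genes in Duroc (7.03% of all genes) and 0 in Luchuan (2.58%). Luchuan calls, 25 as reported, numbered 12 with scaling in 20 bins (3.97% of all regions), 15 with a 99% interval (3.98%), 3 without regions under 100 reads (1.45%) and 1 among common regions (1.05%). Duroc calls, 16 as reported, numbered 23 with scaling in 20 bins (5.67% of all regions), 8 without regions under 100 reads (4.52%), 3 among common regions (1.33%) and 42 at 1.5-fold (10.3%). Each percentage covers the regions of the genome that the setting kept. Without regions under 100 reads, the median of all collagen regions was -0.093 and the fibrillar median -0.015, beside -0.048 for all regions of the genome. Among common regions the fibrillar median was 0.056, beside 0.009 for all common regions. Genes called higher in Duroc numbered 5 within gene bodies (4.38% of all genes), 4 within 2 kb (3.19%), 4 without regions in another gene (3.69%) and 6 at a lower fold limit (8.53%), against 2. For named genes and regions, where the scalings and pseudocounts alone were varied, called values lost the call in 10 cases and 3 uncalled genes gained it, namely COL16A1, COL18A1 and COL6A6 with the clean reads. The settings with common regions and without COL5A2, COL24A1 or COL27A1 were chosen after seeing the data. The cause of these shifts was not tested.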

Other observations

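Regions of the genome that the authors' table marks as specific to a breed were weaker than common ones: Luchuan-specific regions held a median of 20 Luchuan and 17 Duroc reads, Duroc-specific regions 20 and 38, and common regions 102 and 160. Of the Luchuan-specific regions 30.9% were called higher in Luchuan and of the Duroc-specific ones 13.3% in Duroc, so a specific mark alone was not a 2-fold difference in most cases. The same held for the collagens, where 24 of 68 Luchuan-specific and 13 of 126 Duroc-specific regions were called. In COL27A1, a region marked as Luchuan-specific at chr1:254776653-254776802 held 47 Luchuan and 80 Duroc reads, a log2 ratio of -0.18 (-0.75 to 0.34), and in COL4A1 a Duroc-specific region at chr11:76937998-76938149 held 19 and 18 reads, with 0.64 (-0.36 to 1.66).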
